A study of Homo sapiens with 15 samples.

Results

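Cyclins, cyclin-dependent kinases, replication factors, centromere proteins and kinesins were followed in ZR-75-1 cells, an estrogen receptor-positive human breast cancer line, after 6 h with a steroid. Members were taken by symbol: a probe set belonged if its platform gene symbol was a cyclin A, B, D or E, a numbered CDC or CDK gene, a CENP, a KIF, an MCM, an ORC, a GINS or an E2F gene. Each gene was represented by its probe set with the highest mean over the 15 arrays. This gave 119 of the 14361 genes with a named probe set, 30 of them G1-S genes, 42 mitotic genes and 47 others. The others carry such a name but were placed in neither class, and most act mainly in transport, transcription or other processes. The kinesins KIF2A and KIF2B were placed among the others, although KIF2C of the same family was classed as mitotic. The ORC genes, CENPE and CENPF had no probe set under these symbols in the annotation used and were not analysed here. The arrays fell into 5 groups of 3: cells with 10 nM MPA (medroxyprogesterone acetate, a synthetic progestin), 10 nM PROG (progesterone), 10 nM DHT (dihydrotestosterone, an androgen), 10 nM DEX (dexamethasone, a synthetic glucocorticoid), and vehicle. The compound names are the usual reading of these abbreviations. The vehicle was 0.1% ethanol, although the sample labels also call these cells untreated, and no source used here gives the solvent of the compounds. All 15 samples came from the same line, grown in serum-containing medium, and the labels name no gene alteration. Nothing in the labels ties the 3 arrays of a group to independent cultures. The p-values therefore reflect array-to-array spread, part or all of which may be technical.

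A cell enters the division cycle when D-type cyclins with CDK4 or CDK6, and then E-type cyclins with CDK2, phosphorylate the retinoblastoma protein and so free E2F factors, which switch on the genes of DNA replication. Origins of replication are licensed when CDC6 and the origin recognition complex load the MCM helicase, and they fire when CDC7 kinase, CDC45 and the GINS complex turn that helicase on. Later, cyclins A and B with CDK1 drive mitosis, in which CENP proteins build the kinetochore on the centromere, mitotic kinesins move the spindle and CDC20 directs the anaphase-promoting complex. Progestins are known in breast cancer lines for an early push through G1 that is followed by arrest.

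The values are log2 expression levels, as deposited, so a level is read only against the same gene in other arrays and not against another gene. Levels under 3.7, the median of all deposited values, are called dim, and 108 of the 119 genes had a mean above that. All 42 mitotic genes and 29 of the 30 G1-S genes were above it, the exception being CCND2. The other 10 dim genes were CDC20B, CDK15 and 8 kinesins (KIF2B, KIF5A, KIF5C, KIF6, KIF17, KIF19, KIF25 and KIF26B), whose values say little about expression in either direction. Array medians lay between 3.69 and 3.73. Cell type markers were read against the dim level alone, which does not settle cell identity. All 9 measured luminal markers (of 10 listed), among them ESR1 (7.69), GATA3 (10.1), FOXA1 (9.97) and EPCAM (10.6), were above the dim level. The 3 measured basal markers (of 5 listed) KRT5, KRT14 and VIM were dim (2.96 to 3.67), with VIM, at 3.67, close to that level. Of 2 measured fibroblast markers LUM (4.06) was above the dim level, and of 2 measured blood and endothelial markers CD68 (7.71) was, and their part in the results was not tested. In bulk RNA, fewer cells in a cycle phase and less RNA per cell cannot be told apart. A member is called when limma's adjusted p over all 14841 named probe sets is under 0.05, changes are log2 differences ± the standard error of that fit with n = 3 arrays per group, and intervals are its 95% intervals. The spread was small: the median within-group SD was 0.062 for G1-S genes, 0.061 for mitotic genes, 0.064 for the others and 0.082 for all probe sets tested.

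Promoters are shown for 4 genes whose values follow: E2F1 and GINS2, which were called with both progestins, MCM6, a helicase subunit that was not called, and CCNB1, a mitotic cyclin that was called lower. Each run holds 250 bases before to 50 after the gene start in RefSeq (GRCh38.p14), 5′ to 3′ on the gene's strand, at chr20:33686336-33686635 (minus strand), chr16:85688905-85689204 (minus), chr2:135876394-135876693 (minus) and chr5:69166900-69167199 (plus). Capitals mark matches on either strand to an E2F motif (TTTCCCGC, TTTCGCGC, TTTGCCGC or TTTGGCGC), to the cell cycle homology region, a motif of late cell cycle genes (TTTGAA or TTCGAA), and to the CCAAT box (CCAAT). Only these letters were searched, so a promoter without a capital run may still hold a variant form of a motif.
E2F1: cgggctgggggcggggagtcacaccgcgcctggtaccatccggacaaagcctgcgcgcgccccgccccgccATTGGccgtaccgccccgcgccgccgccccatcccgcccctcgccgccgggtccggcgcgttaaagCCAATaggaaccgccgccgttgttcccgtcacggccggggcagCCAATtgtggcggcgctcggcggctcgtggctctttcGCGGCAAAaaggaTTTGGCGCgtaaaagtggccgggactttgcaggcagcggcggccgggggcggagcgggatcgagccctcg
GINS2: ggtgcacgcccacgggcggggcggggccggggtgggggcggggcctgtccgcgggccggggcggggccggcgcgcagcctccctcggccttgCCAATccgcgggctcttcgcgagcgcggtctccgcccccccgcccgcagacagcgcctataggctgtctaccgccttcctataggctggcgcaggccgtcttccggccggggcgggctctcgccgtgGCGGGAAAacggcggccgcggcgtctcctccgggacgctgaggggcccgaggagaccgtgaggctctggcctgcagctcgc
MCM6: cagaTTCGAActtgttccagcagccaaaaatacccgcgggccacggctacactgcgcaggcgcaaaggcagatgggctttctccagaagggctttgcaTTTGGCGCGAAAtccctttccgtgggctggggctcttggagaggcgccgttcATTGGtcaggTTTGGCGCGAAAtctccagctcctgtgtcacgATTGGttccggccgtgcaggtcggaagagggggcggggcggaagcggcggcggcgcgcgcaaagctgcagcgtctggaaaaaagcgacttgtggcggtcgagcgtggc
CCNB1: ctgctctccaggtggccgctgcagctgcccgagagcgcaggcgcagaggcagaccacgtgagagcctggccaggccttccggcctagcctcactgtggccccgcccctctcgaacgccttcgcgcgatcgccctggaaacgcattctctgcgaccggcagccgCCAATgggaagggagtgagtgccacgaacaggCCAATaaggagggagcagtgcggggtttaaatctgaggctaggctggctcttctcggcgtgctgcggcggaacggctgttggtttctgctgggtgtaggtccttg
E2F1 had 2 E2F matches, whose first bases lay 33 and 20 bases before the gene start, and GINS2 had 1, at 31 bases before it. The 4 matches of MCM6 formed 2 pairs of overlapping matches on opposite strands, and CCNB1 had none but held 2 CCAAT boxes.

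Of the 30 G1-S genes 22 had a promoter in the RefSeq table, and 13 of these (59.1%) held an E2F match, as did 6 of 39 mitotic genes (15.4%), 5 of 41 others (12.2%) and 3.31% of the 35116 promoters of the same length. The 35116 were not matched for base composition nor reduced to 1 promoter per gene, as the members were. Each E2F form searched holds a CG step. The median number of CG steps was 26 in G1-S, 24 in mitotic, 28 in other and 14 in all promoters. The cell cycle homology region was found in 18 of 39 mitotic promoters (46.2%), 2 of 22 G1-S promoters (9.09%) and 16.4% of all promoters, and the CCAAT box in 27 of 39 mitotic (69.2%), 14 of 22 G1-S (63.6%) and 34.6% of all. The E2F motif was present in 4 of the 5 G1-S genes called higher with MPA that had a promoter (E2F1, E2F2, GINS2 and GINS3, but not CDC7) and in 9 of the 17 other G1-S promoters. The palindrome bound by androgen, glucocorticoid and progesterone receptors (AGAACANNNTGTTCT, searched with any base at N) was in no member's promoter and in 1 of the 35116. Its right arm, TGTTCT, which any palindrome match also holds, was in 0 of 22 G1-S, 5 of 39 mitotic (12.8%) and 14.8% of all promoters. A letter match does not show that a factor binds, and these windows cover only the start of each gene. Variant forms of the motifs were not counted.

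In MPA-treated cells the genes called higher than vehicle were mainly G1-S genes, and the 2 called lower were mitotic. The classes had been chosen with earlier results of these data known. Of the 30 G1-S genes 7 rose (CCND1, CCNE2, E2F1, E2F2, CDC7, GINS2 and GINS3) and 0 fell, where 4.11% of all probe sets tested were called higher and 1.82% lower. Among the 42 mitotic genes 0 rose and 2 fell, CCNB1 and CENPH, and among the 47 others KIF13B rose. The median change was 0.070 for G1-S genes, -0.003 for mitotic genes, 0.013 for the others and -0.003 for all probe sets tested. Changes above 0 were found in 25 of 30 G1-S genes, 20 of 42 mitotic genes and 7112 of the 14841 probe sets tested. Without MPA 3 the 8 members called higher became 4, and with only the MPA and vehicle arrays in the fit they became 3 (CCNE2, E2F1 and KIF13B).

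**Figure D1:**
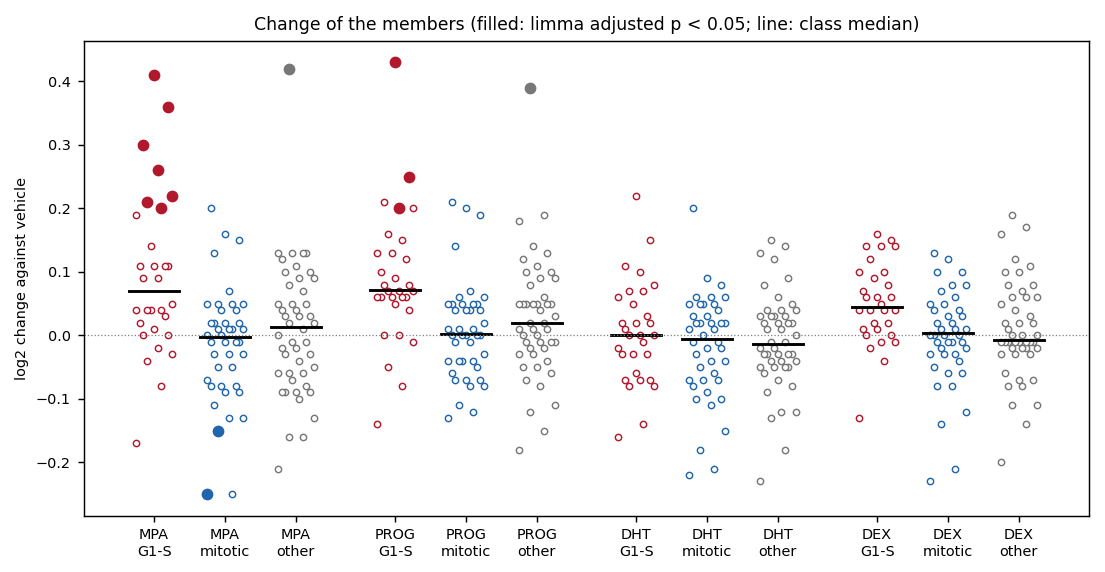
Log2 change against vehicle of each of the 119 members (circles) for MPA, PROG, DHT and DEX, split into G1-S, mitotic and other genes; filled circles passed limma's adjusted p of 0.05 and lines are class medians. Filled G1-S circles appear above 0 with MPA (7) and PROG (3), and none are filled with DHT or DEX.

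The E-type cyclin CCNE2 stood at 9.70, 9.94 and 9.82 on the MPA arrays, against 9.42, 9.37 and 9.44 on the vehicle arrays. No MPA array overlapped with a vehicle array, and the level rose 1.33-fold (log2 change 0.41 ± 0.055, limma adjusted p = 2.08e-04), a call that held with each array left out (0.35 to 0.47). CCNE1, its paralogue, had 9.22, 9.16 and 9.27 with MPA, against 9.15, 9.18 and 9.19 with vehicle, and these ranges overlapped (0.04 ± 0.045, interval -0.05 to 0.14, limma adjusted p = 0.688). The D-type cyclin CCND1, which opens G1, was at 11, 10.86 and 10.99 with MPA, against 10.78, 10.65 and 10.80 with vehicle. All MPA values were the higher ones (0.21 ± 0.054, limma adjusted p = 0.0376). But the call was lost (adjusted p 0.0622 to 0.150) when MPA 1, MPA 3, vehicle 1 or vehicle 2 was left out. It was also lost with all probe sets of the table tested (0.0628), with the replicate number as a block (0.0546) and with the 2 groups alone (0.174). CCND3 had a mean of 4.09 with MPA and 4.12 with vehicle (limma adjusted p = 0.852), and CCND2 was dim in all 5 groups.

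Their partner kinases and the phosphatase CDC25A, which activates CDK2, were not called. CDK4 averaged 10.82 ± 0.026 with MPA and 10.82 ± 0.049 with vehicle (SD, n = 3 each), CDK2 had 9.10 ± 0.093 with MPA and 9.0 ± 0.059 with vehicle, and CDC25A had 7.96 ± 0.040 with MPA and 7.85 ± 0.042 with vehicle. CDK6 had the lowest G1-S change, -0.17 ± 0.068 (limma adjusted p = 0.188). The intervals of these 4 genes ran from -0.32 (CDK6) to 0.22 (CDK2).

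E2F1, the activator E2F most tied to S phase entry, was at 9.81, 9.58 and 9.70 with MPA, against 9.26, 9.33 and 9.42 with vehicle. Again the groups did not overlap, and the level rose 1.28-fold (0.36 ± 0.061, limma adjusted p = 0.00166), between 0.30 and 0.42 with any array left out and called each time. E2F2, a second activator, had 7.27, 7.34 and 7.38 with MPA, against 6.98, 7.19 and 7.04 with vehicle (0.26 ± 0.065, limma adjusted p = 0.0275). That call was lost (adjusted p 0.0720 to 0.123) when MPA 2, MPA 3, vehicle 1 or vehicle 3 was left out and in the fit of the 2 groups alone (0.101). All 5 measured E2F genes had changes above 0, from 0.09 to 0.36, and 2 of them were called.

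Among the 16 genes of origin licensing and firing, CDC7, GINS2 and GINS3 rose with MPA, and the other GINS subunits GINS1 (0.03, limma adjusted p = 0.803) and GINS4 (0.04, 0.811) and their partner CDC45 (0.05, 0.688) were not called. CDC7, the kinase that phosphorylates the MCM helicase, was at 7.11, 7.15 and 7.17 with MPA, against 6.98, 6.89 and 6.91 with vehicle. It rose 1.16-fold (0.22 ± 0.046, limma adjusted p = 0.00955) with no overlap and held with each array left out, but not in the fit of the 2 groups alone (0.0615). GINS2, a subunit of the active helicase, had 9.91, 9.90 and 9.99 with MPA, against 9.70, 9.75 and 9.76 with vehicle, all MPA values being higher. Its change of 0.20 ± 0.043 (limma adjusted p = 0.0111) lost its call without vehicle 1 or MPA 3 (adjusted p 0.0544 and 0.0550) and in the fit of the 2 groups alone (0.0928). GINS3, a second subunit, had 7.03, 7.05 and 7.31 with MPA, against 6.94, 6.88 and 6.68 with vehicle, so that MPA 3 and vehicle 3 are the extremes. Its change was 0.30 ± 0.079 (limma adjusted p = 0.0407), with the call lost without vehicle 2, vehicle 3 or MPA 3 (adjusted p 0.0699 to 0.162). The call was also lost with all probe sets tested (0.0617), the replicate number as a block (0.0616) and the 2 groups alone (0.204).

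The MCM2 to MCM7 helicase subunits, which form a ring around DNA, were not called with MPA. MCM5 came nearest, with 8.98, 8.84 and 8.96 with MPA, against 8.73, 8.77 and 8.72 with vehicle, which do not overlap (0.19 ± 0.052, limma adjusted p = 0.0522). It was called without MPA 2 (adjusted p = 0.0234), with dim probe sets left out (0.0311) and with an intensity trend and robust prior (0.0196). The other 5 had differences of 0.00 to 0.04, for example MCM6 with 9.16, 9.25 and 9.25 with MPA, against 9.23, 9.23 and 9.19 with vehicle, and MCM4 with 9.72, 9.74 and 9.72 with MPA, against 9.65, 9.69 and 9.72 with vehicle. MCM10, which helps the helicase open DNA, had a change of 0.14 ± 0.048 (limma adjusted p = 0.127), and CDC6, the MCM loader, of 0.09 ± 0.077 (0.628).

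**Figure D2:**
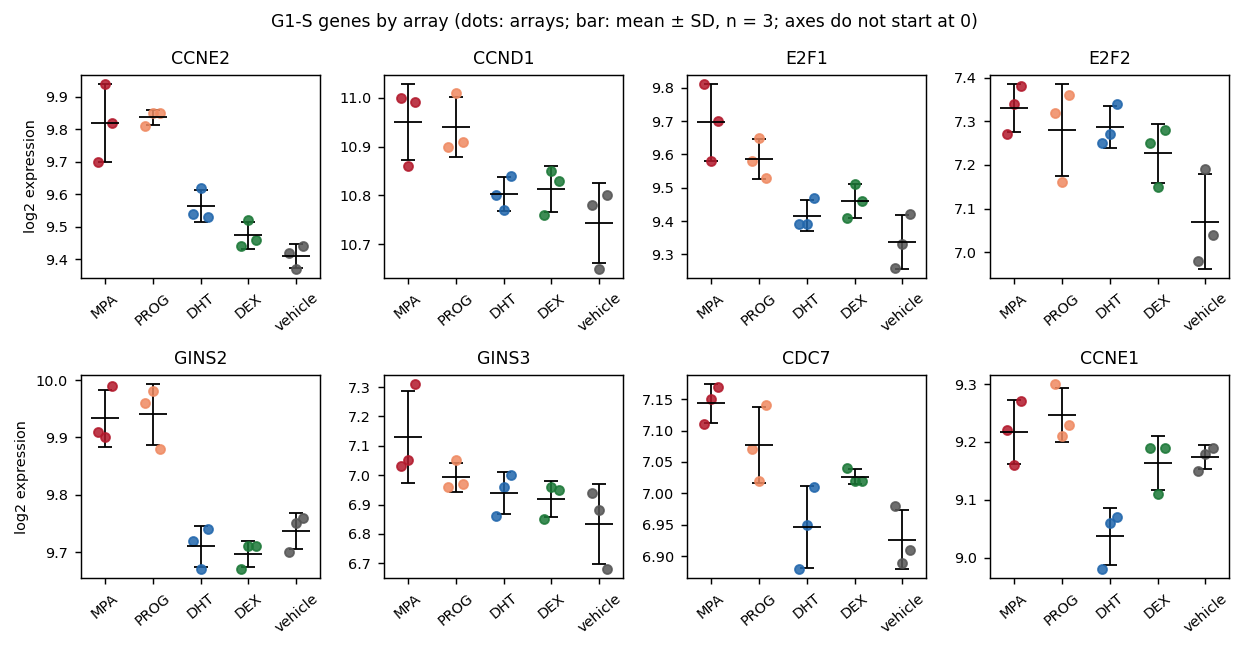
Log2 expression of 8 G1-S genes on every array (dots), with group mean and SD (bars, n = 3), in the MPA, PROG, DHT, DEX and vehicle groups; the axes do not start at 0. For CCNE2 and GINS2 all 6 MPA and PROG arrays lie above all DHT, DEX and vehicle arrays, and CCNE1 is lowest on the DHT arrays.

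On the mitotic side the B-type cyclin CCNB1, partner of CDK1, was at 9.20, 9.25 and 9.24 with MPA, against 9.38, 9.38 and 9.37 with vehicle. The fall to 0.90 of the vehicle level was small (-0.15 ± 0.039, limma adjusted p = 0.0374). The call was lost whichever of the 6 arrays was left out (adjusted p 0.0568 to 0.132). It was also lost with all probe sets tested (0.0740), the replicate number as a block (0.0600) and the 2 groups alone (0.159). CENPH, an inner kinetochore subunit, had 7.39, 7.65 and 7.50 with MPA, against 7.83, 7.74 and 7.72 with vehicle. The call of its fall (-0.25 ± 0.068, limma adjusted p = 0.0461) was likewise lost whichever array but MPA 2 was left out (adjusted p 0.0732 to 0.183). The same held with all probe sets tested (0.0722), the replicate number as a block (0.0650) and the 2 groups alone (0.155). KIF20B, a mitotic kinesin named after its value was seen, had a change as large as that of CENPH, -0.25, that was not called (limma adjusted p = 0.0859) except with an intensity trend and robust prior (0.0367).

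The other core mitotic genes were not called with MPA. CDK1 averaged 9.49 ± 0.050 with MPA and 9.50 ± 0.035 with vehicle (SD, n = 3 each; interval of the change -0.11 to 0.09). CDC20, activator of the anaphase-promoting complex, had 9.82, 9.75 and 9.87 with MPA, against 9.77, 9.77 and 9.79 with vehicle (interval -0.05 to 0.12). The spindle motor KIF11 had 10.95, 11.04 and 10.95 with MPA, against 11.13, 11.04 and 11.04 with vehicle (interval -0.18 to 0.00). CENPA, the centromeric histone H3 variant, had a difference of 0.02 ± 0.054, the microtubule depolymerase KIF2C of -0.01 ± 0.049, the cytokinesis kinesin KIF20A of -0.07 ± 0.045 and the cyclin A gene CCNA2 of -0.08 ± 0.039. KIF23, a motor of the central spindle, had the second highest mitotic change, 0.16 ± 0.046 (interval 0.06 to 0.25, limma adjusted p = 0.0633), after the meiotic cyclin CCNB3 (0.20 ± 0.092, adjusted p = 0.280). It was called without vehicle 1 (adjusted p = 0.0303), with dim probe sets left out (0.0349) and with an intensity trend and robust prior (0.0137).

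KIF13B, a plus-end transport kinesin with no established role in the cycle engine, had the highest MPA change among all 119 members. Its level was 8.74, 8.74 and 8.77 with MPA, against 8.37, 8.24 and 8.37 with vehicle, a 1.34-fold rise (0.42 ± 0.051, limma adjusted p = 7.17e-05) that was called with each array left out. The lowest changes above the dim level among the others, both -0.16, were those of the kinesin KIF27 and of CDK10, which had 4.85, 4.92 and 4.98 with MPA, against 4.90, 5.22 and 5.12 with vehicle, which overlap (limma adjusted p = 0.648). Without vehicle 3 the dim kinesin gene KIF2B passed the threshold as lower with each of MPA, PROG, DHT and DEX (changes -0.35, -0.31, -0.37 and -0.34).

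PROG against vehicle gave 4 called members, all higher. Of the 30 G1-S genes CCNE2, E2F1 and GINS2 rose and 0 fell, where 2.43% of all probe sets tested were called higher and 0.391% lower. In this fit no mitotic gene was called, and KIF13B rose among the others. With an intensity trend and robust prior 2 mitotic genes were called higher with PROG. They were KIF23 (0.14, limma adjusted p = 0.0439) and CENPU (0.19, 0.0258), a centromere protein gene named after its value was seen. CENPU was also called without PROG 3 (0.23, 0.0454). The median change was 0.072 for G1-S genes, 0.002 for mitotic genes, 0.020 for the others and 0.000 for all probe sets tested. At an unadjusted p under 0.05 limma had 5 of 42 mitotic genes, 4 higher and 1 lower, where 11.6% of all probe sets tested passed, so that the count is near the background. The 4 members called became 2 without PROG 1 or PROG 2 and 2 in the fit of the 2 groups alone.

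CCNE2 was at 9.81, 9.85 and 9.85 on the PROG arrays, against 9.42, 9.37 and 9.44 on the vehicle arrays, a 1.34-fold rise (0.43 ± 0.055, limma adjusted p = 2.63e-04) called with each array left out. GINS2 had 9.96, 9.98 and 9.88 with PROG, against 9.70, 9.75 and 9.76 with vehicle (0.20 ± 0.043, limma adjusted p = 0.0165). Both genes showed no overlap between PROG and vehicle, but GINS2 lost its call without vehicle 1, PROG 1 or PROG 2 (adjusted p 0.0718 to 0.0932) and in the fit of the 2 groups alone (0.110). E2F1 had 9.58, 9.65 and 9.53 with PROG, against 9.26, 9.33 and 9.42 with vehicle (0.25 ± 0.061, limma adjusted p = 0.0427). This call was lost whichever array but vehicle 3 was left out (adjusted p 0.0607 to 0.187). It was also lost with all probe sets tested (0.0721), after quantile normalization (0.0601), with the replicate number as a block (0.0769) and with the 2 groups alone (0.113). KIF13B was at 8.77, 8.68 and 8.70 with PROG, against 8.37, 8.24 and 8.37 with vehicle, with no overlap (0.39 ± 0.051, limma adjusted p = 2.89e-04) and with a call that held without each array.

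CCND1 had 10.90, 11.01 and 10.91 with PROG, against 10.78, 10.65 and 10.80 with vehicle, which do not overlap, and missed the threshold (0.20 ± 0.054, limma adjusted p = 0.0838). It passed with dim probe sets left out (adjusted p = 0.0498) and with an intensity trend and robust prior (0.0174). CDC7 (0.15 ± 0.046, limma adjusted p = 0.131), E2F2 (0.21 ± 0.065, 0.135), MCM10 (0.13 ± 0.048, 0.237) and MCM5 (0.12 ± 0.052, 0.400) were also above 0 without a call. Of the mitotic genes CENPQ, a kinetochore subunit, had the highest change with PROG (0.21 ± 0.074, limma adjusted p = 0.206) and CENPH the lowest (-0.13 ± 0.068, 0.536). CCNB1 had 9.27, 9.27 and 9.25 with PROG, against 9.38, 9.38 and 9.37 with vehicle, which did not overlap either (-0.11 ± 0.039, limma adjusted p = 0.193).

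DHT against vehicle and DEX against vehicle gave no called member by limma, where 0.889% of all probe sets tested were called with DHT (0.775% higher, 0.115% lower) and 1.11% with DEX (0.957% higher, 0.148% lower). At an unadjusted p under 0.05 there were 12 members with DHT, 6 higher and 6 lower, and 14 with DEX, 8 higher and 6 lower, where 9.9% of all probe sets tested passed that limit with DHT and 10.4% with DEX. The members' counts at this limit are close to that background. The median change of G1-S genes was 0.000 with DHT and 0.045 with DEX, and that of mitotic genes -0.005 with DHT and 0.003 with DEX, against -0.003 and 0.010 for all probe sets tested in the same order.

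With DHT CCNE2 was at 9.54, 9.62 and 9.53, against 9.42, 9.37 and 9.44 with vehicle. The groups did not overlap, but the difference was not called (0.15 ± 0.055, interval 0.04 to 0.27, limma adjusted p = 0.320). CCNE1 had 8.98, 9.06 and 9.07 with DHT, against 9.15, 9.18 and 9.19 with vehicle, so that all DHT values were lower (-0.14 ± 0.045, limma adjusted p = 0.258). GINS2 (interval -0.12 to 0.06), CDC7 (-0.08 to 0.12) and KIF13B (-0.09 to 0.13) had intervals with DHT that spanned 0 and lay below their MPA changes. E2F2 had the highest G1-S change with DHT (0.22 ± 0.065, limma adjusted p = 0.197) and CDC6 the lowest (-0.16 ± 0.077, 0.543). Of the 16 licensing and firing genes 12 had a DHT difference below 0, as did 50.1% of all probe sets tested. With MPA, PROG and DEX these counts were 2 of 16 each, beside 50.7%, 49.4% and 44.4% of all probe sets, and the difference between compounds in these counts was not tested. On the mitotic side CENPA was at 7.56, 7.56 and 7.61 with DHT, against 7.30, 7.43 and 7.40 with vehicle, a set without overlap that was not called (0.20 ± 0.054, limma adjusted p = 0.129). Among the others the ubiquitin-conjugating enzyme CDC34 had the highest DHT change (0.15 ± 0.057) and CDK20 the lowest above the dim level (-0.13 ± 0.052). With dim probe sets left out the phosphatase CDC14B was called lower with DHT (-0.21, adjusted p = 0.0459, against 0.0789 over all named probe sets).

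With DEX CCNE2 was at 9.44, 9.52 and 9.46, against 9.42, 9.37 and 9.44 with vehicle, and the arrays met at 9.44 (0.06 ± 0.055, interval -0.05 to 0.18, limma adjusted p = 0.750). E2F1 had 9.41, 9.51 and 9.46 with DEX, against 9.26, 9.33 and 9.42 with vehicle (interval -0.01 to 0.25, limma adjusted p = 0.517), and GINS2 had an interval of -0.13 to 0.05. The highest G1-S change with DEX was again that of E2F2 (0.16 ± 0.065, limma adjusted p = 0.410), and MCM5 was at 0.14 ± 0.052 (0.323). KIF13B had 8.44, 8.54 and 8.58 with DEX, against 8.37, 8.24 and 8.37 with vehicle, without overlap. That difference was not called (0.19 ± 0.051, limma adjusted p = 0.112) except with an intensity trend and robust prior (adjusted p = 0.0457). CENPH was at 7.44, 7.57 and 7.58 with DEX, against 7.83, 7.74 and 7.72 with vehicle (-0.23 ± 0.068, limma adjusted p = 0.173), and KIF23 had the highest mitotic change (0.13 ± 0.046, 0.315).

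**Figure D3:**
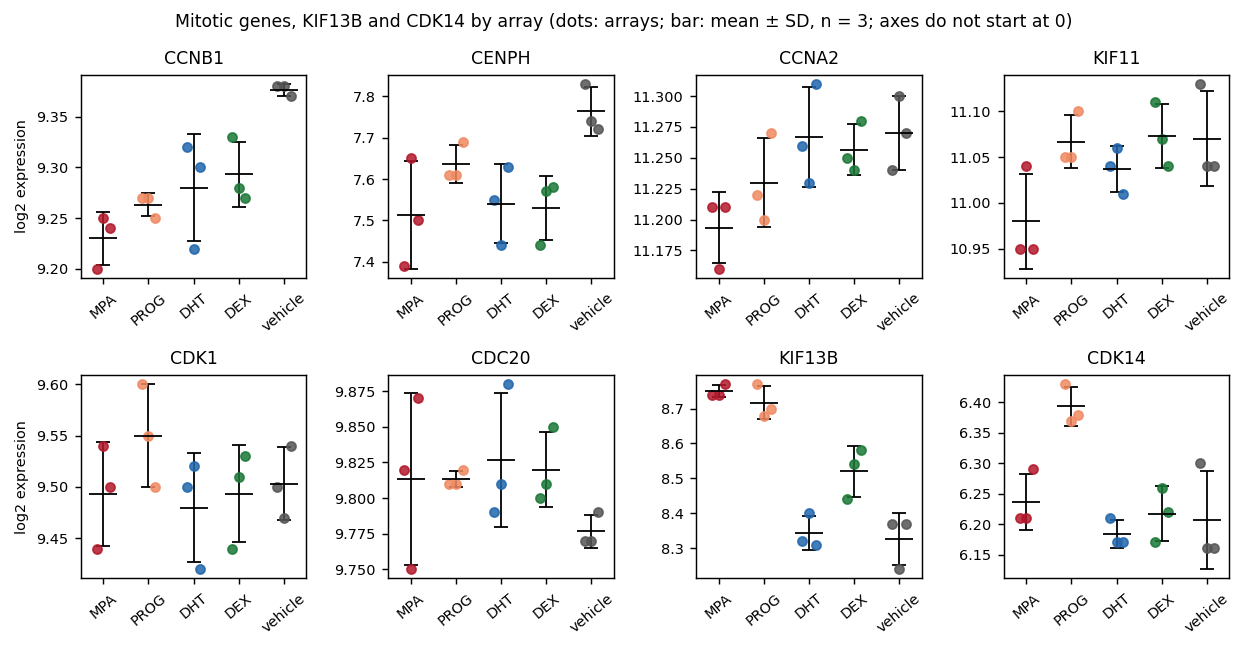
Log2 expression of 6 mitotic genes and of KIF13B and CDK14 on every array (dots), with group mean and SD (bars, n = 3), in the MPA, PROG, DHT, DEX and vehicle groups; the axes do not start at 0. CCNB1 and CENPH are highest on the vehicle arrays, and KIF13B is highest on the MPA and PROG arrays.

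CCNB1 and CENPH were lower than all 3 vehicle arrays on each of the 12 treated arrays, as were 98 of all 14841 probe sets tested (0.66%). Both genes had been called lower with MPA, so this is a description. The 4 comparisons share the same 3 vehicle arrays, so the changes of a gene with the 4 compounds are not independent of each other. The solvent of the compounds, which the labels do not give, cannot be told apart from the steroid in these comparisons.

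Class medians were also taken on each array. Relative to the mean of the vehicle arrays, the median G1-S gene was at 0.088, 0.058 and 0.075 on the MPA arrays, 0.035, 0.083 and 0.110 on the PROG arrays, -0.018, 0.018 and 0.030 on the DHT arrays and 0.020, 0.048 and 0.058 on the DEX arrays, against -0.025, -0.002 and 0.023 on the vehicle arrays. Every MPA and PROG array lay above every vehicle array, while the DHT and vehicle arrays overlapped. DEX 2 and DEX 3 also lay above every vehicle array and above PROG 1, and DEX 1 did not. Changes above 0 were found in 25 of the 30 G1-S genes with MPA, 24 with PROG, 15 with DHT and 24 with DEX. Among the 14841 probe sets tested these counts were 7112, 7233, 7192 and 8033. The median mitotic gene stayed between -0.028 and 0.023 on all 15 arrays. Of the 30 G1-S genes 12 (40%) had all 3 MPA arrays above all 3 vehicle arrays. With PROG 11 had this (36.7%), with DHT 2 (6.67%) and with DEX 3 (10%). Among all probe sets tested 10.1% had all 3 MPA arrays above the vehicle arrays, 9% with PROG, 7.05% with DHT and 9.06% with DEX. The G1-S shares with DHT and DEX are thus near that background. By limma, a different measure, 5.93%, 2.82%, 0.889% and 1.11% of all probe sets were called in either direction with MPA, PROG, DHT and DEX. These counts and medians are descriptions of the list, which was not tested as a set.

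**Figure D4:**
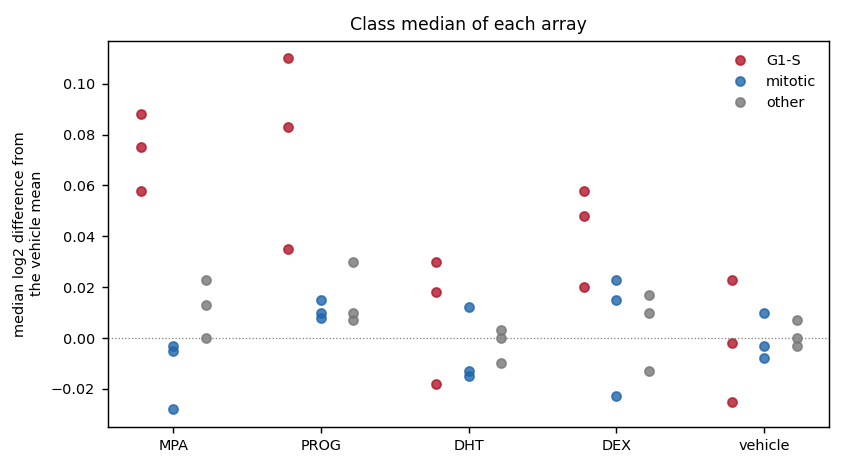
Median over the G1-S, mitotic and other members of the log2 difference from the mean of the vehicle arrays, 1 dot per array, for the MPA, PROG, DHT, DEX and vehicle groups. G1-S dots of MPA and PROG lie between 0.035 and 0.110 and those of DEX between 0.020 and 0.058. Mitotic dots lie between -0.028 and 0.023 in all groups.

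The compounds were then set against each other at the same dose and time in 6 pairs. MPA differs from progesterone by a methyl and an acetoxy group that progesterone lacks, and limma called no member between MPA and PROG, where 0.29% of all probe sets tested were called, 0.236% higher and 0.0539% lower. At an unadjusted p under 0.05 there were 6 of 119 members, all lower with MPA, where 8.52% of all probe sets tested passed and 4.18% were lower. The interval of MPA minus PROG was -0.13 to 0.10 for CCNE2, -0.10 to 0.08 for GINS2, -0.11 to 0.13 for CCND1, -0.08 to 0.14 for KIF13B and -0.02 to 0.24 for E2F1. These intervals do not show that MPA and PROG act alike, and for E2F1 the upper bound was close to its change with PROG against vehicle (0.25).

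MPA against DHT gave 7 called members, all higher with MPA, where 3.51% of all probe sets tested were called, 2.53% higher and 0.977% lower. CCNE2 (9.70, 9.94 and 9.82 with MPA, against 9.54, 9.62 and 9.53 with DHT) differed by 0.26 ± 0.055 (limma adjusted p = 0.0154), but not without MPA 2, DHT 1 or DHT 3 (adjusted p 0.0612 to 0.0687) nor in the fit of the 2 groups alone (0.167). GINS2 differed by 0.22 ± 0.043 (limma adjusted p = 0.00667) and KIF13B by 0.41 ± 0.051 (1.96e-04), and both calls held without each array, although that of GINS2 was lost in the fit of the 2 groups alone (0.0826). E2F1 (0.28 ± 0.061, limma adjusted p = 0.0179), CDC7 (0.20 ± 0.046, 0.0283), CCNE1 (0.18 ± 0.045, 0.0418) and CCNB3 (0.38 ± 0.092, 0.0348) were also called. E2F1 lost its call without MPA 1, MPA 3, DHT 1 or DHT 2 (adjusted p 0.0567 to 0.0832), CDC7 without MPA 2, MPA 3, DHT 1 or DHT 2 (0.0792 to 0.133), CCNE1 without any array but MPA 2 (0.0603 to 0.178) and CCNB3 without MPA 2, MPA 3, DHT 1 or DHT 3 (0.0631 to 0.136). The 7 became 3 without MPA 3, 2 without DHT 1, 4 without DHT 2 or DHT 3, and 1 (KIF13B) in the fit of the 2 groups alone, and with all probe sets tested CCNE1 (0.0779), CDC7 (0.0544) and CCNB3 (0.0541) were lost. With the replicate number as a block CCNE1 (0.0563) and CCNB3 (0.0670) were lost, and after quantile normalization CCNE1 (0.0554).

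PROG against DHT called 5 members, all higher with PROG, where 1.71% of all probe sets tested were called, 1.36% higher and 0.35% lower. They were CCNE2 (0.27 ± 0.055, limma adjusted p = 0.0174), GINS2 (0.23 ± 0.043, 0.00987), CCNE1 (0.21 ± 0.045, 0.0267), KIF13B (0.37 ± 0.051, 7.40e-04) and CDK14, a kinase of the WNT pathway named after its value was seen (0.21 ± 0.047, 0.0361). CDK14 was at 6.43, 6.37 and 6.38 with PROG, against 6.21, 6.17 and 6.17 with DHT, without overlap. KIF13B alone kept its call without each array. CCNE2 lost it without PROG 2, PROG 3, DHT 1 or DHT 3 (adjusted p 0.0660 to 0.0806), GINS2 without PROG 1, PROG 2 or DHT 2 (0.0514 to 0.0597), CCNE1 without any array but DHT 3 (0.0534 to 0.141) and CDK14 without any of the 6 (0.0808 to 0.151). With all probe sets tested CCNE1 (0.0535) and CDK14 (0.0693) were lost. CDK14 was also lost with the replicate number as a block (0.0677) and with an intensity trend and robust prior (0.0634). Its PROG change against vehicle, 0.19, was called only with dim probe sets left out (0.0269), averaged probe sets (0.0490) or vehicle 1 left out (0.23, 0.0148). The number of called members became 1 without PROG 2, 2 without PROG 3 or DHT 1, and 3 without PROG 1, DHT 2 or DHT 3. These 3 included a new call, CDC14B, without PROG 1 (0.22, limma adjusted p = 0.0437) and a new call, CCNB3, without DHT 2 (0.46, 0.0314). In the fit of the 2 groups alone there were 2 (CCNE2 and KIF13B).

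**Figure D5:**
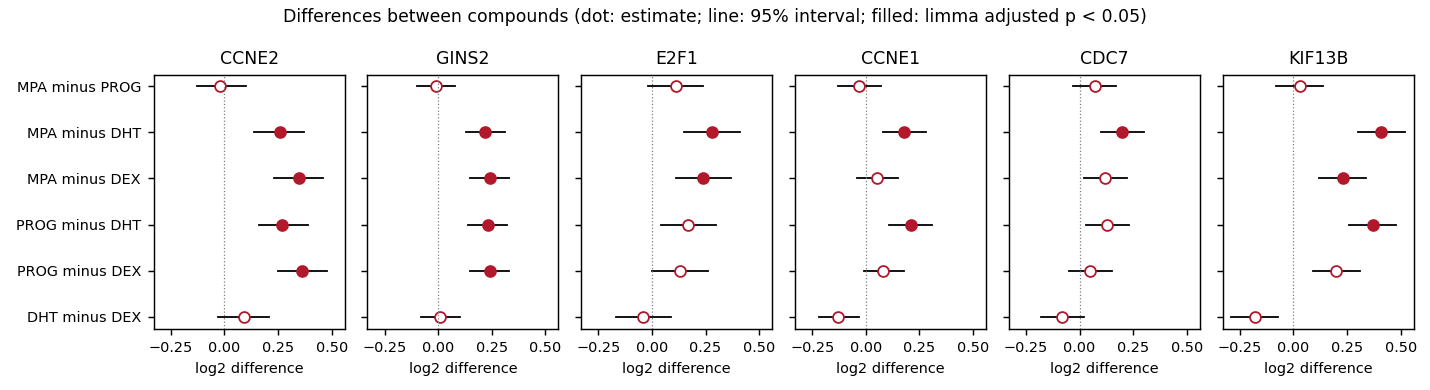
Log2 differences between compounds for CCNE2, GINS2, E2F1, CCNE1, CDC7 and KIF13B (dots) with 95% intervals of limma's fit (lines), first compound minus second; filled dots passed an adjusted p of 0.05. MPA minus PROG spans 0 in all panels, while CCNE2 and GINS2 are filled in all 4 pairs of MPA or PROG with DHT or DEX.

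MPA against DEX called CCNE2 (0.35 ± 0.055, limma adjusted p = 0.00161), GINS2 (0.24 ± 0.043, 0.00441), E2F1 (0.24 ± 0.061, 0.0449), KIF13B (0.23 ± 0.051, 0.0175) and the dim KIF26B, all higher with MPA, where 4.06% of all probe sets tested were called, 2.49% higher and 1.57% lower. CCNE2 and GINS2 were called without each array but not in the fit of the 2 groups alone (adjusted p = 0.0553 and 0.0578). KIF13B lost its call without MPA 3 or DEX 1 (adjusted p 0.0632 and 0.0827) and E2F1 without any array but MPA 2 (0.0660 to 0.180). E2F1 also lost it with all probe sets tested (0.0769) and with the replicate number as a block (0.0773). KIF26B had 3.36, 3.52 and 3.49 with MPA, against 3.35, 3.23 and 3.18 with DEX, all under the dim level (0.20 ± 0.053, limma adjusted p = 0.0482). Its call was lost without MPA 2, MPA 3, DEX 2 or DEX 3 (0.142 to 0.195) and with all probe sets tested (0.0852) or quantile normalization (0.0660). The replicate number as a block (0.0849), the intensity trend and robust prior (0.0730) or the 2 groups alone (0.240) also removed the call. The 5 became 2 without MPA 3 and 3 without DEX 1, DEX 2 or DEX 3. PROG against DEX called CCNE2 (0.36 ± 0.055, limma adjusted p = 0.00252) and GINS2 (0.24 ± 0.043, 0.00756), where 1.42% of all probe sets tested were called, 1.03% higher and 0.391% lower. CCNE2 had 9.81, 9.85 and 9.85 with PROG, against 9.44, 9.52 and 9.46 with DEX, and GINS2 had 9.96, 9.98 and 9.88 with PROG, against 9.67, 9.71 and 9.71 with DEX. Both calls held without each array, and in the fit of the 2 groups alone GINS2 lost its call (0.0826). DHT against DEX gave no called member by limma, where 0.654% of all probe sets tested were called, 0.256% higher and 0.398% lower. At an unadjusted p under 0.05 there were 15 of 119 members, 3 higher and 12 lower with DHT. Among all probe sets tested 9.57% passed that limit, 3.77% higher and 5.81% lower. Of the 30 G1-S genes 6 passed it, all lower with DHT, and this lean was not tested. With dim probe sets left out CDK20 was called lower with DHT (-0.23, adjusted p = 0.0386).

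Genes of the same processes that the symbol rule does not take were read from 3 further lists. The lists were chosen with earlier results of these data known, so they describe the data and are not independent support. Of 20 measured G1-S partners (of 40 listed), UHRF1, which recruits DNA methylation at replication, and DTL, which directs the destruction of the licensing factor CDT1, rose with MPA and with PROG, and 0 fell, where 4.11% of all probe sets tested were called higher and 1.82% lower with MPA, and 2.43% and 0.391% with PROG. DTL was at 11.39, 11.38 and 11.36 with MPA and at 11.38, 11.37 and 11.36 with PROG, against 11.16, 11.16 and 11.20 with vehicle. Its changes were 0.20 ± 0.039 with MPA (limma adjusted p = 0.00492), called without each array, and 0.20 ± 0.039 with PROG (0.0120), lost without vehicle 2, PROG 1 or PROG 2 (0.0514 to 0.0530). UHRF1 rose by 0.24 ± 0.055 with both (limma adjusted p = 0.0147 with MPA and 0.0264 with PROG), calls that were lost without vehicle 1, vehicle 2 or MPA 3 (0.0626 to 0.0646) and without vehicle 1, vehicle 2, PROG 2 or PROG 3 (0.101 to 0.126). Between compounds SLBP alone of the 20 was called. It was higher with MPA than with DEX (0.17 ± 0.042, limma adjusted p = 0.0347), where 2.49% of all probe sets tested were called higher. The median change of the 20 was 0.032 with MPA, 0.045 with PROG, -0.023 with DHT and 0.020 with DEX, beside -0.003, 0.000, -0.003 and 0.010 for all probe sets tested with these compounds. None was called with DHT or DEX. At an unadjusted p under 0.05 limma had 2 of the 20 with DHT, both lower, and 1 with DEX, higher. Among all probe sets tested 9.9% passed that limit with DHT and 10.4% with DEX.

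Of 46 measured mitotic partners (of 58 listed), the checkpoint gene BUB3 rose and the condensin gene SMC4 and the anaphase-promoting complex gene ANAPC1 fell with MPA, against the same shares of all probe sets (4.11% higher, 1.82% lower). BUB3 was at 11.03, 11.15 and 11.09 with MPA, against 10.89, 10.86 and 10.84 with vehicle (0.23 ± 0.043, limma adjusted p = 0.00447), called without each array. SMC4 (-0.21 ± 0.047, limma adjusted p = 0.0133) and ANAPC1 (-0.28 ± 0.066, 0.0203) both lost their calls without vehicle 1, MPA 1 or MPA 3 (0.0509 to 0.0683 and 0.0612 to 0.0961). With PROG BUB3 alone was called (0.18 ± 0.043, limma adjusted p = 0.0391), and not without any 1 of the 6 arrays (0.0693 to 0.178). The median change of the 46 was -0.035 with MPA, 0.005 with PROG, -0.017 with DHT and -0.008 with DEX, to be read against the same medians of all probe sets. None was called with DHT or DEX. At an unadjusted p under 0.05 limma had 2 of the 46 with DHT, 1 higher and 1 lower, and 3 with DEX, 1 higher and 2 lower. Among all probe sets tested 9.9% passed with DHT and 10.4% with DEX.

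Among 11 measured inhibitors and pocket proteins (of 22 listed), WEE1, the kinase that holds CDK1 inactive, rose with both progestins, against the same shares of all probe sets. It was at 10.44, 10.38 and 10.35 with MPA and at 10.42, 10.39 and 10.40 with PROG, against 10.24, 10.17 and 10.20 with vehicle, and the calls held without each array (0.19 ± 0.038, limma adjusted p = 0.00676, and 0.20 ± 0.038, 0.00787). CCNG2, a cyclin linked to cell cycle exit, was at 6.81, 6.76 and 6.79 with MPA, 6.75, 6.78 and 6.77 with PROG and 7.11, 7.14 and 7.10 with DEX, against 7.0, 6.89 and 6.94 with vehicle. It fell with MPA (-0.16 ± 0.040, limma adjusted p = 0.0308) and PROG (-0.18 ± 0.040, 0.0267), while the DEX change of 0.17 was not called (0.0564). Between compounds it was lower with MPA than with DEX (-0.33 ± 0.040, limma adjusted p = 1.52e-04), with PROG than with DEX (-0.35 ± 0.040, 2.13e-04) and with DHT than with DEX (-0.26 ± 0.040, 0.00465). Of this list RBL1 was also called between compounds, higher with PROG than with DHT, where 1.36% of all probe sets tested were called higher. The calls of CCNG2 against vehicle were lost without any array but vehicle 2 with either progestin (0.0521 to 0.130 with MPA, 0.0740 to 0.114 with PROG). RBL2, the pocket protein p130 of resting cells, fell with MPA (-0.17 ± 0.046, limma adjusted p = 0.0462), a call lost when MPA 2, MPA 3, vehicle 1 or vehicle 3 was left out (0.0997 to 0.166). None of the 11 was called with DHT or DEX. At an unadjusted p under 0.05 limma had 4 of the 11 with DHT, 2 higher and 2 lower, and 2 with DEX, both higher. Among all probe sets tested 9.9% passed with DHT and 10.4% with DEX, and the larger share of the 11 with DHT was not tested.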

How the data were processed

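Per the labels' protocols, RNA of ZR-75-1 cells was amplified, labelled with biotin and hybridised to 15 Affymetrix arrays, 3 in each of 5 groups, which were taken from the sample titles. The authors deposited log2 expression values of 34878 probe sets, 1 column per array. Per the submitters' processing notes the tools were RMA and Partek; no source used here states their versions, settings or a genome build. RMA brings the distributions of arrays close together, which takes out most of any shift that most genes share, and it can compress changes of dim probe sets. Small differences between arrays remained, with array medians of 3.69 to 3.73.

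Values were used as deposited. In the platform annotation 14841 probe sets have 1 gene symbol. The package limma 3.58.1 under R 4.3.3 (functions lmFit, eBayes; 10 residual degrees of freedom, prior 3.81) fitted 5 group means to these, with 2-sided tests of 10 contrasts and Benjamini-Hochberg adjustment within each. The fit was run on simulated data with independent noise and planted MPA changes. Its recovery rates are not reported here, so it says nothing on how often changes of the present size are missed. Of the 119 members, 4 had more than 1 probe set, and all had the same symbol in the current RefSeq table. KIF4A and KIF4B are near-identical copies, so their signals cannot be told apart with certainty. The number of arrays limits the precision.

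Replicate numbers did not pair the arrays: deviations of same-numbered arrays correlated between -0.054 and 0.067 (30 pairs), and all were under 0.1. Named genes are all members called against vehicle, the highest and lowest change of each class and compound above the dim level, a list of core cycle genes, and called genes of 3 further lists, of which the text gives part. The members, classes and lists were chosen with earlier results of these data known. Alternatives were all 34878 probe sets, dim probe sets left out, quantile normalization, the replicate number as a block, an intensity trend with robust prior, the 2 groups alone, averaged probe sets, and each array left out.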

Additional observations from a re-analysis of the deposited data

How the results depend on the processing

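With quantile normalization the G1-S median became 0.054 with MPA, 0.049 with PROG, -0.012 with DHT and 0.023 with DEX, and the mitotic median -0.016, -0.014, -0.011 and -0.019 in the same order. The median change of all probe sets tested moved by up to 0.014 over the contrasts, so small shifts between arrays are part of these medians. With dim probe sets left out the G1-S median with MPA became 0.087. With each array left out the G1-S median ranged from 0.050 to 0.087 with MPA, 0.056 to 0.094 with PROG, -0.020 to 0.021 with DHT and 0.037 to 0.062 with DEX, and the mitotic median from -0.016 to -0.007, -0.008 to 0.014, -0.016 to -0.003 and -0.005 to 0.005 in the same order. Leaving out arrays gave 4 to 9 higher and 0 to 1 lower with MPA, 2 to 4 higher and 0 to 1 lower with PROG, 0 higher and 0 to 1 lower with DHT and with DEX, 0 for MPA against PROG and for DHT against DEX, 2 to 5 for MPA against DHT, 2 to 4 for MPA against DEX, 1 to 3 for PROG against DHT and 2 for PROG against DEX. In the fit of the 2 groups alone there were 3 higher and 0 lower with MPA, 2 higher with PROG, 1 for MPA against DHT, 0 for MPA against DEX, 2 for PROG against DHT and 1 for PROG against DEX, with fewer samples to estimate the spread. With all 34878 probe sets tested there were 0 lower with MPA, 4 for MPA against DHT, 3 for MPA against DEX and 3 for PROG against DHT. With the intensity trend and robust prior there were 4 lower with MPA, 7 higher with PROG and 1 higher with DEX. The calls gained with PROG were CCND1 and the mitotic genes CENPU and KIF23. With dim probe sets left out there was 1 lower with DHT and 1 for DHT against DEX. With the replicate number as a block, which does not pair these arrays, there were 0 lower with MPA (2 without the block) and 3 for MPA against DEX (5 without), and other counts stayed within 1.5 times. No member called against vehicle reversed its direction under any of these alternatives. The cause of these shifts was not tested.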
